A study of Mus musculus with 21 samples.

Results

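The comparison described here sets mouse embryonic stem cells that were kept on an engineered SOX17, called SOX17FNV, against cells of the same line kept on SOX2, both grown in 2i medium. All libraries of the series labelled with either rescue in 2i were taken, which gave 8 of the 21 libraries, 4 in each group, and every one of the 16443 genes in the deposited table was tested. The cell line is 2TS22C, an embryonic stem cell line whose SOX2 can be shut off with doxycycline. In the FNV group the cells had been transduced with a lentivirus carrying SOX17FNV, in the SOX2 group with a lentivirus carrying SOX2, and the labels give silenced endogenous SOX2 and DOX treatment for both. The untransduced control cells, called NTC, are labelled wild type, and no doxycycline is listed for them, so the rescued cells and NTC differ in transduction and drug as well as in the SOX factor. The design text names the media as a serum and Lif medium, here called SL, and a 2i medium that it also describes as holding serum and Lif. Whether a transduced line is a single clone is not stated in the sources used here, and the same line, medium, virus type and drug are shared by both rescued groups.

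SOX2 and SOX17 are HMG box transcription factors that bend DNA and act with partner proteins. SOX2 pairs with OCT4 in embryonic stem cells and holds up pluripotency genes, whereas native SOX17 is known for its role in endoderm. Culture in 2i blocks MEK and GSK3, which lowers ERK signalling and stabilises beta-catenin, so ERK target genes are usually low and Wnt target genes usually high in this medium. Embryonic stem cells that lose SOX2 are known to turn towards trophectoderm, the outer epithelium of the blastocyst.

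Each rescued group holds replicates 1 and 2, from a first wave, and 2 later libraries, p21 and p31, from a second wave. The titles call the later libraries biological replicates 2 and 3, so replicates 1 and 2 may stand for a single biological replicate. Among 3378 genes of middling level, replicates 1 and 2 differed on the log2 scale with a standard deviation of 0.15 in FNV and 0.11 in SOX2, whereas p21 and p31 differed with 0.44 and 0.28. Every library has a median of 214 and a total between 14044316 and 14047262, because the authors had made the libraries equal. Read depth is therefore unknown, and no counting interval can be given. P-values measure the spread between these libraries, part of which may be technical. Values are given below in the order replicate 1, replicate 2, p21, p31.

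Sox2 (chromosome 3, 34650405 to 34652461, plus strand, mm10) stood at 35, 36, 43 and 19 in the FNV libraries and at 1509, 1251, 939 and 947 in the SOX2 libraries. Sox17 (chromosome 1, 4490931 to 4497354, minus strand) stood at 3160, 3301, 1792 and 2659 in FNV and at 6, 5, 2 and 2 in SOX2. Both genes match the labels in all 8 libraries, and their difference is set by the constructs. The values cannot separate transcripts of the virus from those of the cell's own genes.

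With all libraries in the limma fit, 4150 genes (25.2%) passed an adjusted p under 0.05, 2031 of them higher in FNV (12.4%) and 2119 lower (12.9%). When replicates 1 and 2 were averaged into 1 library, 465 genes (2.83%) passed, 231 higher (1.4%) and 234 lower (1.42%). The genes that passed both ways in the same direction numbered 463 (2.82%), and 368 of them differed at least 2-fold and 187 at least 4-fold. In 430 of the 463 the FNV and SOX2 libraries did not overlap, which over all genes held for 1374 higher in FNV (8.36%) and 1445 lower (8.79%). The words rose and fell are kept below for genes that passed in both fits, and a gene that passed only before averaging is called higher or lower with that said. Changes are log2 differences, FNV minus SOX2, on the log2(value + 1) scale with the standard error of the fit to all libraries, and the median change of all genes was -0.01.

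The list with the highest median change was epithelial. Of 20 measured effector genes of trophectoderm and simple epithelium, 15 were higher and 3 lower in the fit to all libraries, 8 and 1 after averaging, and the median change of the list was 1.27. The intermediate filament keratins led it. Krt18 (chromosome 15, 102028180 to 102032027) read 2601, 2743, 2394 and 1110 in FNV and 56, 70, 183 and 103 in SOX2, a rise of 4.48 ± 0.33 (adjusted p = 4.36e-07). Its partner Krt8 (chromosome 15, 101996698 to 102004482) read 3513, 3770, 2659 and 2761 against 156, 141, 572 and 453, a rise of 3.51 ± 0.32 (adjusted p = 2.95e-06). The groups were apart for both keratins, and the SOX2 values were higher in p21 and p31 than in replicates 1 and 2. The NTC libraries held 324, 336 and 585 for Krt18, above every SOX2 library, and 381, 355 and 958 for Krt8. The FNV libraries lay above NTC for both keratins. Krt7, another simple epithelial keratin, rose by 3.43 ± 0.38 from a lower level, with 21 to 64 in FNV and 1 to 6 in SOX2. Wnt7b, a Wnt ligand, read 337, 324, 170 and 103 against 6, 8, 4 and 10 and rose by 4.78 ± 0.43. Lgals3, which encodes galectin-3, stood at 204 to 346 in FNV and at 18 to 32 in SOX2.

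Other members of this list moved by less. Anxa3, an annexin, read 291, 312, 262 and 298 in FNV and 74, 78, 125 and 132 in SOX2, and Plet1, a surface protein of placental tissue, read 336, 317, 526 and 505 against 127, 139, 170 and 214. They rose by 1.54 ± 0.13 and 1.36 ± 0.13, with no overlap of the libraries. Atp1b1, the beta subunit of the sodium pump that drives blastocoel filling, went the other way. It read 1022, 1119, 1269 and 1509 in FNV against 4087, 4048, 4087 and 3208 in SOX2, and fell by 1.66 on the log2 scale (SE 0.13). The list as named therefore holds members that moved in opposite directions.

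**Figure D1:**
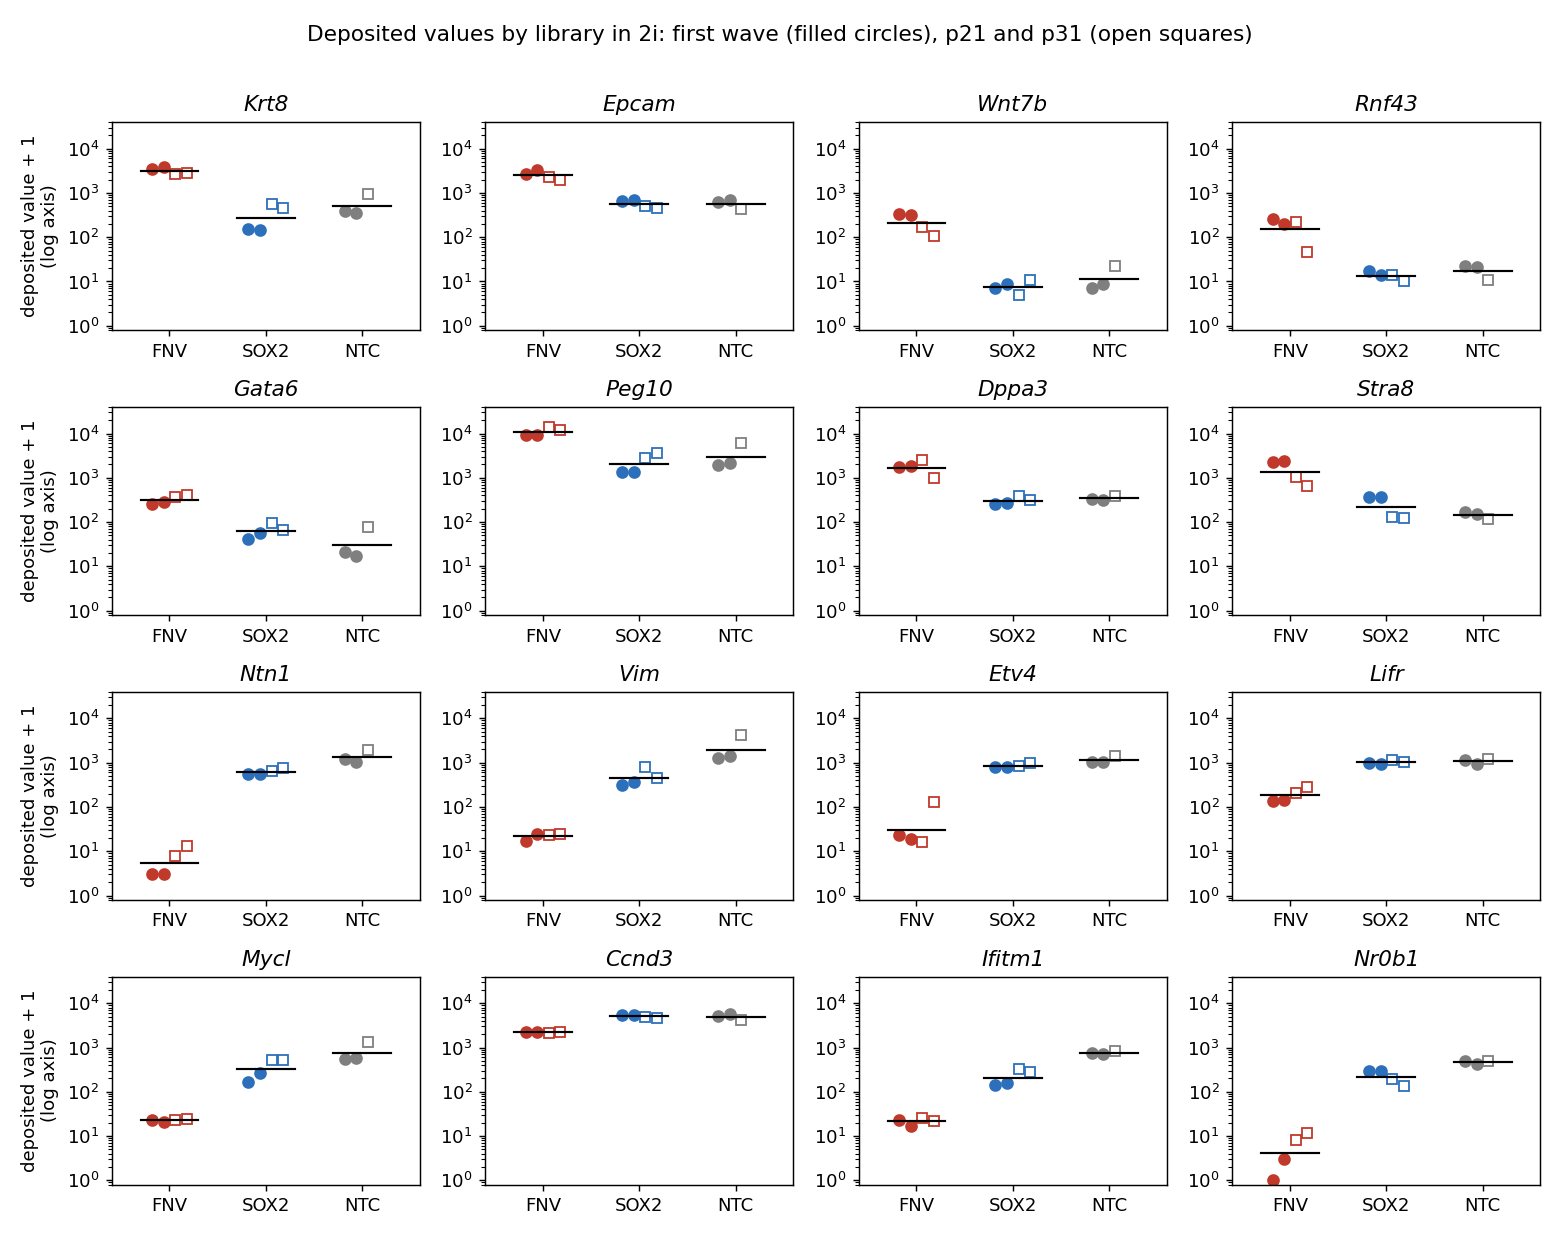
Deposited value plus 1 on a log axis for 16 genes in the FNV, SOX2 and NTC libraries in 2i; filled circles are replicates 1 and 2, open squares p21 and p31, and the line is the mean on the log scale. Krt8 lies between 2659 and 3770 in FNV and between 141 and 572 in SOX2, and Ntn1 between 2 and 12 in FNV and between 541 and 738 in SOX2.

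Junction genes went with the keratins. Of 27 measured epithelial junction genes, 15 were higher and 3 lower, 4 and 0 after averaging, with a median change of 0.49. Epcam (chromosome 17, 87635979 to 87651129, plus strand), the epithelial cell adhesion molecule, read 2698, 3326, 2268 and 1962 in FNV and 656, 681, 501 and 466 in SOX2. Its rise of 2.14 ± 0.08 had an adjusted p of 2.02e-10, and the change was 2.16 in the first wave and 2.12 in the second. The NTC libraries held 607, 700 and 439, close to the SOX2 range. Cldn7, a tight junction claudin, read 129, 231, 130 and 44 against 18, 26, 18 and 10 and rose by 2.67 ± 0.32. Pkp2, a desmosomal plakophilin, rose by 1.55 ± 0.12 with 539 to 973 in FNV and 203 to 311 in SOX2, and the polarity gene Pard6b rose by 1.25 ± 0.16. Cdh1, which encodes E-cadherin, was higher only before averaging, by 0.55 ± 0.12, and its p31 values were equal in both groups at 14818.

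Regulators of trophoblast identity gave mixed results. Among 17 measured trophoblast transcription factors, 4 were higher and 3 lower in the fit to all libraries and 0 passed after averaging, with a median change of 0.69. Cdx2, a trophectoderm master regulator that is also a Wnt target, read 245, 235, 217 and 452 in FNV and 0, 0, 27 and 40 in SOX2, and 519 in the second-wave NTC library. The groups were apart, but the change of 5.56 ± 0.79 did not pass after averaging, and it was 6.33 without FNV p21. Gata3 read 88, 79, 130 and 160 against 12, 14, 54 and 130, so its ranges overlapped. Tfap2c, at 509 to 783 in FNV and 385 to 607 in SOX2, did not pass (adjusted p = 0.163).

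Extraembryonic endoderm genes showed a few strong members on a mixed background. Of 7 measured regulators, 2 were higher and 0 lower (28.6%, against 25.2% of all genes), and 1 passed after averaging. That gene was Gata6, the primitive endoderm factor, which read 251, 278, 373 and 408 in FNV, 40, 57, 94 and 65 in SOX2 and 20, 16 and 76 in NTC, and rose by 2.37 ± 0.31 (adjusted p = 6.23e-05). Of 16 measured effectors, 5 were higher and 1 lower, 1 and 0 after averaging, with a median of 0.46. Dab2, an endocytic adaptor of the endoderm, read 4972, 4972, 3897 and 4178 against 556, 549, 987 and 1379 and rose by 2.48 ± 0.20. Lrp2, the megalin receptor that Dab2 serves, ranged from 3185 to 5475 in FNV and from 712 to 1851 in SOX2 and passed only before averaging. Of 19 basement membrane genes, 3 were higher and 3 lower. Hspg2, the proteoglycan perlecan, fell by 0.93 on the log2 scale, from 16427 to 18500 in SOX2 to 7310 to 11820 in FNV.

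The core pluripotency factors did not pass the test, and a number of naive factors were lower in FNV. Nanog, a homeobox factor of the pluripotent state, stood at 18500, 19699, 18500 and 13693 in FNV and at 19699, 21188, 19699 and 16427 in SOX2, a difference of -0.14 ± 0.11 (adjusted p = 0.399). Pou5f1, which encodes OCT4, stood at 9718, 9718, 10050 and 12486 against 10050, 10739, 12486 and 16422 and did not pass (adjusted p = 0.224), and neither did Klf4 (0.28 ± 0.18, adjusted p = 0.288). Of 22 naive pluripotency factors, 2 were higher and 10 lower in the fit to all libraries, 1 and 1 after averaging, with a median of -0.35. Esrrb, a SOX2 partner and target, was lower in all 4 FNV libraries (4581, 4732, 5395 and 4972 against 8734, 8734, 7307 and 6370), with a change of -0.65 ± 0.10, and the change of Prdm14, a repressor of lineage genes, was -0.88 ± 0.10. Both passed only before averaging, as did the naive marker Zfp42 at -0.74 ± 0.24, which no longer passed when FNV replicate 1, 2 or p21 or SOX2 p21 or p31 was left out.

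The naive gene that fell in both fits was Nr0b1, the orphan nuclear receptor DAX1. It read 0, 2, 7 and 11 in FNV, 297, 301, 193 and 133 in SOX2 and 486, 430 and 483 in NTC, a fall with an adjusted p of 3.06e-06. Tcl1, a coactivator of AKT, read 12, 7, 44 and 101 against 855, 949, 720 and 722, and Foxd3, a forkhead repressor, 15, 19, 12 and 67 against 212, 189, 305 and 292. The FNV libraries lay below the SOX2 libraries for both, and both missed the threshold after averaging (change of -4.94 ± 0.61 for Tcl1, -5.60 without FNV p31, and -3.41 ± 0.46 for Foxd3). Dppa3, the germline and naive marker also called Stella, moved in the opposite direction, with 1792, 1842, 2579 and 976 in FNV, 255, 262, 382 and 317 in SOX2 and 317 to 387 in NTC, a rise of 2.50 ± 0.22 (adjusted p = 2.12e-06). Of 16 general pluripotency factors, 2 were higher and 6 lower and 0 passed after averaging. Of 17 formative and primed genes, 2 were higher and 5 lower, and Otx2, the formative homeobox factor, fell by 1.62 on the log2 scale, from 79 to 212 in SOX2 to 23 to 56 in FNV. The mesendoderm gene Gsc also fell, with 2, 2, 12 and 11 in FNV against 27, 55, 104 and 73 in SOX2.

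**Figure D2:**
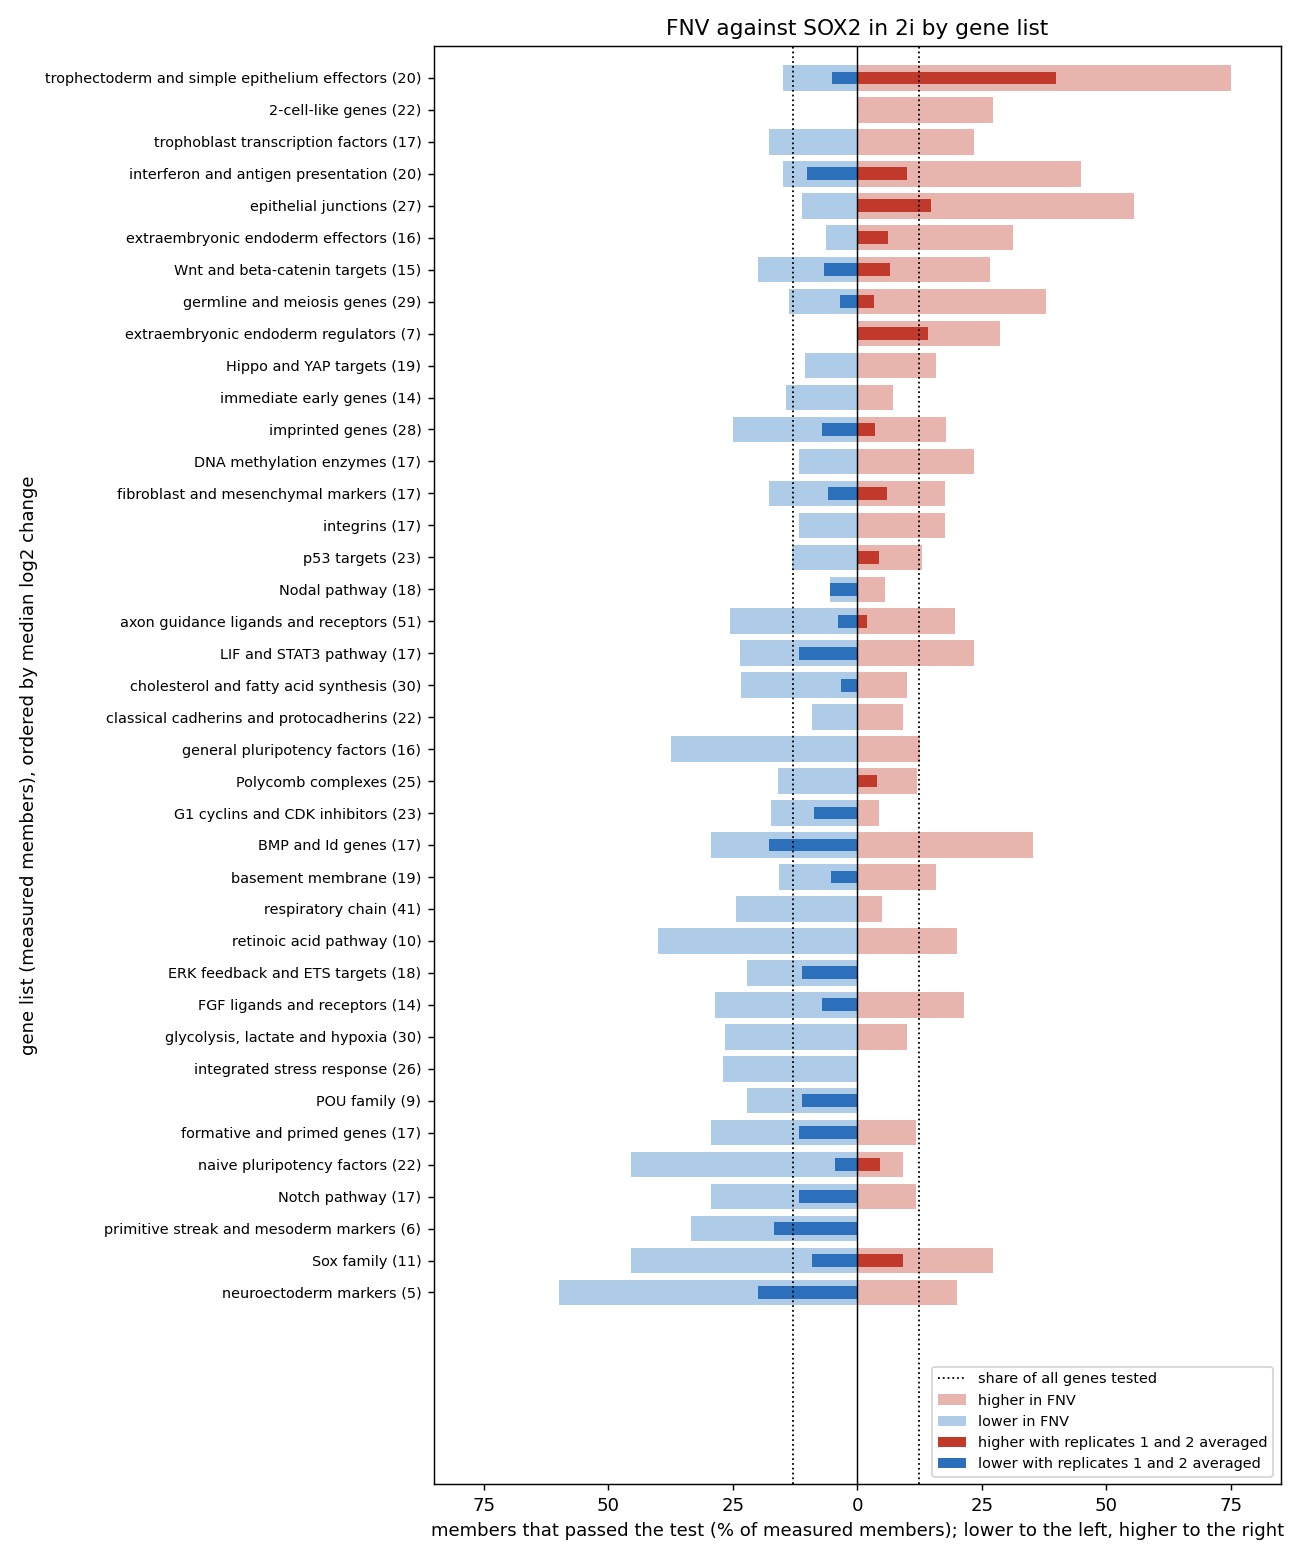
Share of measured members of each of 39 gene lists that passed limma's test, lower in FNV to the left and higher to the right, in the fit to all libraries (pale bars) and with replicates 1 and 2 averaged (dark bars); dotted lines mark the share of all genes, 12.4% higher and 12.9% lower. The list of trophectoderm and simple epithelium effectors reaches furthest to the right, with 15 of 20 members, and the Sox family and neuroectoderm lists lie at the bottom by median change.

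Large falls included those of Ntn1, Cbln1 and Tubb3. Ntn1 (chromosome 11, 68209364 to 68400823, minus strand), the guidance cue netrin-1, read 2, 2, 7 and 12 in FNV, 552, 541, 658 and 738 in SOX2 and 1182, 1037 and 1918 in NTC. It fell by 6.80 on the log2 scale (SE 0.28, adjusted p = 1.24e-09), and the change was -7.51 in the first wave and -6.10 in the second. Cbln1, a synaptic organiser, read 2, 6, 5 and 1 against 293, 279, 212 and 76. Tubb3, a neuronal tubulin, read 13, 12, 14 and 40 against 156, 204, 571 and 507. No FNV library of these genes reached the lowest SOX2 library. Of the 5 measured neuroectoderm markers, which include Tubb3, 1 was higher and 3 lower, 0 and 1 after averaging, with a median of -1.20.

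Kbtbd11, a BTB and kelch domain gene, fell from 98 to 253 in SOX2 to 1 or 2 in FNV, and Ly6g6e, a small surface protein gene, from 300 to 672 down to 7 to 27. Vim, the intermediate filament of mesenchymal cells, read 16, 23, 22 and 23 in FNV, 309, 363, 785 and 453 in SOX2 and 1272, 1422 and 4232 in NTC, and fell by 4.36 on the log2 scale (SE 0.23, adjusted p = 1.84e-08). Kctd12b, on the X chromosome, was listed at 0 in every FNV library and at 316, 193, 401 and 428 in SOX2. It was the 1 gene at 0 in all FNV libraries and at or above 100 in every SOX2 library, 0 genes showed the opposite, and it was named after its values were seen.

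Guidance genes moved both ways. Of 51 measured axon guidance ligands and receptors, 10 were higher and 13 lower, 1 and 2 after averaging, with a median of -0.01, the median of all genes. Nrp2, a semaphorin and VEGF co-receptor, fell by 3.51 on the log2 scale (SE 0.22) and read 3, 2, 7 and 7 in FNV, 51, 62, 69 and 55 in SOX2 and 901 to 1603 in NTC. Both groups were thus far under NTC for Nrp2. Unc5b, a receptor for netrin, rose by 1.28 ± 0.13, with 1198, 1212, 1257 and 1647 against 372, 433, 645 and 837.

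Among genes of the ERK pathway, 0 of 18 feedback and ETS target genes were higher and 4 were lower, 2 of them after averaging, with a median of -0.21. The share of this list that passed before averaging was 22.2%, near the 25.2% of all genes. Etv4, an ETS factor, read 22, 18, 15 and 129 in FNV and 777, 808, 823 and 958 in SOX2, and fell by 4.77 on the log2 scale (SE 0.43, adjusted p = 2.76e-06), with p31 well above the other FNV libraries and a change of -5.44 without it. Spred1, an inhibitor of RAS signalling, fell by 1.08 on the log2 scale, from 572 to 843 in SOX2 to 306 to 370 in FNV. Dusp6, a phosphatase of ERK, had overlapping libraries (8 to 58 against 51 to 120) and passed only before averaging. Of 14 FGF ligands and receptors, 3 were higher and 4 lower. Fgf4, a ligand driven by SOX2 with OCT4, differed by -0.43 ± 0.10 before averaging only, with 1245 to 2384 in FNV and 1900 to 3404 in SOX2.

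Both chains of the LIF receptor fell. Lifr read 138, 141, 208 and 278 in FNV, 976, 936, 1146 and 1040 in SOX2 and 1119, 936 and 1219 in NTC, and fell by 2.47 on the log2 scale (SE 0.12, adjusted p = 7.71e-09). Il6st, which encodes the shared signal chain gp130, read 670, 636, 864 and 976 against 1049, 1051, 1475 and 1479 and fell by 0.68 (SE 0.05, adjusted p = 5.45e-07). The SOX2 libraries stayed near NTC for Lifr and below its 1769 to 2305 for Il6st. Downstream, Stat3 differed by -0.09 ± 0.12 and its feedback target Socs3 by -0.72 ± 0.36, and neither passed. Both passed without SOX2 p31 and in the first wave alone (changes of -0.30 and -1.19, adjusted p = 0.0352 and 0.000718). That wave holds only replicates 1 and 2, which may be a single biological replicate, so its p-values may measure technical spread. Socs3 also passed without FNV p21 and with a batch term of 3 levels. Of the 17 measured genes of this pathway, 4 were higher and 4 lower, with a median of -0.02.

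Members of the Notch and BMP lists moved both ways. Notch4, a Notch receptor, read 0, 2, 0 and 3 in FNV, 152, 238, 185 and 182 in SOX2 and 247 to 497 in NTC (adjusted p = 7.15e-08). The Notch ligand Jag1 fell by 2.04 on the log2 scale, from 116 to 179 down to 27 to 43. Of 17 Notch pathway genes, 2 were higher and 5 lower, 0 and 2 after averaging, with a median of -0.42. In the BMP list of 17 genes, 6 were higher and 5 lower, 0 and 3 after averaging. The BMP receptor Acvr1 fell by 1.19 (SE 0.09), with 71 to 80 in FNV and 151 to 198 in SOX2. Smad9, a signal transducer, fell by 1.60 (SE 0.18), and Id4, an inhibitor of helix-loop-helix factors, by 2.05 (SE 0.21), from 291 to 703 down to 95 to 136. Id1 and Id3, classical BMP targets that were added after their values were seen, were higher before averaging, by 2.62 ± 0.58 and 2.47 ± 0.75, but at low values (6 to 40 and 6 to 67 in FNV). Without FNV p21 these changes were 3.35 and 3.38, and Id3 no longer passed without FNV replicate 1, 2 or p31 or SOX2 replicate 1 or p31.

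Wnt and beta-catenin targets were split. Of 15 measured members, 4 were higher and 3 lower, 1 and 1 after averaging, with a median of 0.34. Rnf43, a ubiquitin ligase that removes Wnt receptors, read 262, 195, 214 and 46 in FNV and 16, 13, 13 and 9 in SOX2 and rose by 3.48 ± 0.36. Tcf7, a nuclear partner of beta-catenin, read 231, 224, 297 and 247 against 434, 430, 490 and 396 and fell by 0.81. Axin2, the most widely used Wnt target, read 158, 173, 401 and 555 against 77, 44, 465 and 333, and its libraries overlapped. It passed before averaging only, and not without FNV replicate 1, 2 or p31 or SOX2 replicate 1 or 2. The homeobox gene Cdx1 did not pass with all libraries (adjusted p = 0.612). Its change was 1.30 in the first wave, which passed alone (adjusted p = 0.0182), and -0.61 in the second. The first-wave p-value rests on replicates 1 and 2, which may be a single biological replicate.

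In the interferon and antigen presentation list of 20 genes, 9 were higher and 3 lower, 2 and 2 after averaging, with a median of 0.67. The members that fell were interferon-induced transmembrane genes, which are also expressed in germ cells. Ifitm1 read 22, 16, 25 and 21 in FNV, 138, 156, 319 and 278 in SOX2 and 726 to 855 in NTC and fell by 3.27 (SE 0.15, adjusted p = 4.26e-09). Ifitm2 read 589, 615, 695 and 615 against 1823, 1769, 1461 and 1694 and fell by 1.42 (SE 0.15). The transcription factor Irf1 rose by 1.27 ± 0.17, with 163 to 251 in FNV and 74 to 101 in SOX2, and 145 to 197 in NTC. B2m, the light chain of MHC class I, was higher by 0.89 ± 0.15 before averaging only.

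Cell cycle genes of G1 counted 1 higher and 4 lower of 23, 0 and 2 after averaging. Before averaging 21.7% of the list passed, near the 25.2% of all genes. Ccnd3, cyclin D3, held 2190, 2254, 2074 and 2219 in FNV and 5331, 5331, 4973 and 4582 in SOX2 and fell by 1.21 (SE 0.11, adjusted p = 2.41e-06). Ccnd1, cyclin D1, did not pass with all libraries (adjusted p = 0.303). It passed without FNV p21 and in the first wave alone, with a change of -0.56 (adjusted p = 0.00165) against 0.11 in the second. The first-wave p-value rests on replicates 1 and 2, which may be a single biological replicate. Mycl, a MYC family factor, read 22, 20, 22 and 23 in FNV, 167, 270, 510 and 530 in SOX2 and 538 to 1309 in NTC, and fell by 3.87 (SE 0.22, adjusted p = 3.55e-08). The FNV libraries of both Ccnd3 and Mycl were nearly level across the waves.

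Imprinted genes, expressed from 1 parental copy, counted 5 higher and 7 lower of 28, 1 and 2 after averaging. Peg10, a retrotransposon-derived gene needed in placenta, read 9368, 9368, 13688 and 11819 in FNV and 1370, 1370, 2864 and 3579 in SOX2 and rose by 2.38 ± 0.17 (adjusted p = 3.68e-07). Gnas, which encodes a stimulatory G protein subunit, fell by 1.84 (SE 0.18), and the zinc finger gene Plagl1 by 1.59 (SE 0.21). The other 4 higher members lie together on distal chromosome 7, a pattern noticed in the data. The positions of the 16 members that did not pass, such as Slc22a18, were not compared. Whether the region moved as a whole was therefore not tested. The non-coding RNA H19 (142575529 to 142578143) read 5573, 5797, 19697 and 7059 in FNV, 52, 40, 1525 and 142 in SOX2 and 2099, 2218 and 4667 in NTC. Ascl2, a trophoblast factor (142966829 to 142969264), read 115, 97, 18 and 86 against 24, 24, 7 and 8, so its p21 value in FNV overlapped the SOX2 range. Cdkn1c, a brake on the cell cycle (143458339 to 143461050), and Phlda2, a growth restrainer of placenta (143501545 to 143503150), read 21 to 67 and 17 to 48 in FNV and 4 to 11 and 1 to 6 in SOX2. The 4 genes were higher before averaging by 5.79 ± 0.61, 2.18 ± 0.36, 2.08 ± 0.37 and 2.58 ± 0.47 in that order, and did not pass after it. Without SOX2 p21 the change of H19 was 6.71.

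Germline and meiosis genes counted 11 higher and 4 lower of 29, 1 and 1 after averaging. Stra8, the meiotic entry gene, read 2240, 2394, 1055 and 649 in FNV, 361, 362, 130 and 122 in SOX2 and 114 to 165 in NTC, a rise of 2.69 ± 0.18 (adjusted p = 1.54e-07). The change was 2.68 in the first wave and 2.71 in the second, although the levels of both groups fell between them. Rpl10l, a ribosomal gene of testis with a close paralogue, fell by 0.92 (SE 0.10). Of 22 genes of the 2-cell-like state, 6 were higher and 0 lower, 0 passed after averaging, and the median was 0.96. The share that passed before averaging was 27.3%, near the 25.2% of all genes. For 13 of the 22 every FNV library lay above every SOX2 library, which held for 8.36% of all genes.

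More genes of the metabolic lists were lower than higher in the fit to all libraries, but after averaging 0 passed in the glycolysis, respiratory chain and stress response lists and 1, which was lower, in the cholesterol list. Glycolysis, lactate and hypoxia genes counted 3 higher and 8 lower of 30, and their summed value was 146979 to 178771 in the FNV libraries, 185689 to 254695 in SOX2 and 259507 to 389910 in NTC. A single member, the glucose transporter Slc2a3, read 8734 to 40741 in FNV, 25019 to 76006 in SOX2 and 30387 to 76006 in NTC. These sums therefore rest heavily on Slc2a3 and do not describe the list as a whole. Slc2a3 and Ldhb, a lactate dehydrogenase subunit, were lower before averaging only, with changes of -1.44 ± 0.30 and -2.54 ± 0.39. Both were named after their values were seen. Without FNV p21 the change of Ldhb was -3.15. Respiratory chain genes counted 2 higher and 10 lower of 41, and integrated stress response genes 0 and 7 of 26. In the cholesterol and fatty acid list, with 3 higher and 7 lower of 30, the desaturase Scd2 fell by 0.70 (SE 0.10). Of 25 Polycomb genes, 3 were higher and 4 lower, and the histone chaperone Rbbp7 rose by 0.77 ± 0.08. Of 23 p53 targets, 3 were higher and 3 lower, and Perp, a desmosome-associated effector of p53, rose by 1.07 ± 0.12. In the respiratory chain, stress response, Polycomb and p53 lists 29.3%, 26.9%, 28% and 26.1% passed before averaging, near the 25.2% of all genes.

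Other large rises had no common list. Arrb1, a beta-arrestin, read 646, 545, 744 and 636 in FNV, 35, 56, 41 and 73 in SOX2 and 36 to 42 in NTC, and rose by 3.67 ± 0.22 (adjusted p = 5.59e-08). Ap3b2, a subunit of the neuronal AP-3 adaptor, stood at 480 to 831 against 31 to 57, and Vill, a villin-like gene, at 563 to 825 against 25 to 119. Mrgprx2, a receptor of mast cells, read 212, 205, 294 and 228 in FNV and 2, 2, 1 and 1 in SOX2. Its NTC libraries held 2, 205 and 1, so replicates of that single group were as far apart as FNV and SOX2.

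Fibroblast and mesenchymal markers moved both ways. Of 17 measured genes, 3 were higher and 3 lower, which is 35.3% against 25.2% of all genes. After averaging 1 was higher and 1 lower, and the median was 0.06. In this list 0 genes were at 0 in all 8 libraries. Their summed value ran from 25853 to 41715 in FNV and from 24106 to 42349 in SOX2. The lower members were Vim, which fell by 4.36 as given above, and Col1a1 and Zeb1, which passed only before averaging. Tagln, an actin-binding protein of smooth muscle, rose from 5 or less to 9 to 34, and Col3a1, a fibrillar collagen, read 17, 25, 14 and 76 against 7, 0, 0 and 0 and passed only before averaging. The summed value of extraembryonic endoderm effectors was 19482 to 29268 in FNV, 10119 to 17359 in SOX2 and 8416 to 18445 in NTC. In bulk RNA, a few cells with a high level and many cells with a low level cannot be told apart. The part of other cell types in these differences was not tested.

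The waves were then set side by side. In the first wave alone 5605 genes passed (34.1%), 16.9% of all genes higher in FNV and 17.1% lower. In the second alone 835 passed (5.08%), 2.63% higher and 2.44% lower. Both called 622 genes, 614 of them in the same direction, which is 10.95% of the first-wave calls and 73.5% of the second-wave calls. Of all genes, 67.9% had the same sign in both waves, against 81.4% of the first-wave calls and 94.4% of the second-wave calls. Across the 11967 genes with a mean of at least 50, Pearson's r between the waves was 0.46, a description only, since the points share libraries and genes are not independent replicates. The 463 genes that passed both fits had the same sign in each wave, which their selection favours.

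**Figure D3:**
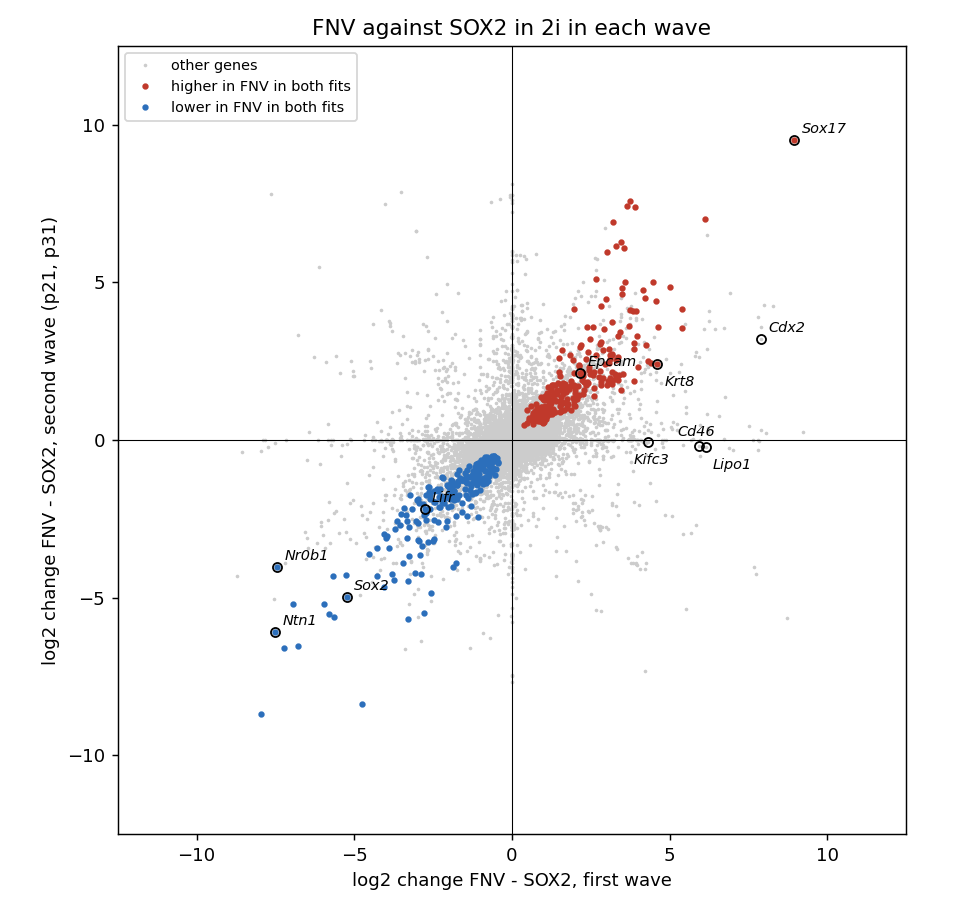
Log2 change FNV minus SOX2 in the second wave against the first wave, 1 point a gene; red and blue mark genes higher or lower in FNV in both fits. Epcam lies on the diagonal (2.16 and 2.12), Krt8 below it (4.61 and 2.41), and Cd46, Lipo1 and Kifc3 lie near 0 in the second wave.

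The difference between waves passed for 580 genes (3.53%), of which 275 had passed between the groups (6.63% of the 4150). Replicates 1 and 2 were not averaged for this test, so its p-values may measure technical spread in the first wave. For Krt8, Krt18, Dab2 and Cdx2 the SOX2 libraries were higher in the second wave than in the first. For Krt8, Krt18 and Dab2 the FNV libraries were also lower in the second wave, so both groups contributed to the difference. The second-wave change less the first-wave change was -2.20 for Krt8, -1.83 for Krt18, -1.38 for Dab2 and -4.70 for Cdx2 (adjusted p = 0.000428, 0.0403, 0.00103 and 0.0081), and the second-wave NTC library also exceeded the first-wave ones for Krt8, with 958 against 381 and 355. For Nr0b1 the change was -7.44 in the first wave and -4.04 in the second. Cd46, a complement regulator, read 274, 342, 205 and 232 in FNV and 4, 4, 299 and 211 in SOX2, with 257 to 408 in NTC. Lipo1, a lipase gene, read 334, 296, 257 and 341 against 3, 4, 345 and 351, with 3, 3 and 288 in NTC and 3 in each FNV and SOX2 library in SL. Kifc3, a kinesin, read 374, 390, 428 and 873 against 24, 14, 639 and 645, with 129, 97 and 800 in NTC. In these 3 genes the SOX2 libraries of the first wave lay below the other 6 libraries of the contrast, and the second-wave changes were -0.20, -0.23 and -0.070. The first-wave NTC libraries were as low as SOX2 for Lipo1, between SOX2 and FNV for Kifc3 and above FNV for Cd46. Atp8a1, a phospholipid flippase, had a change of -1.81 in the first wave and -0.23 in the second. Over all libraries Cd46, Lipo1, Kifc3 and Atp8a1 no longer passed without FNV replicate 1 or 2, and the first 3 of these also without SOX2 replicate 1 or 2. The count of 580 fell to 207 without SOX2 replicate 2 and rose to 2486 without FNV p31, and it was also moved by over 1.5 times without FNV replicate 1 (270), FNV replicate 2 (231), SOX2 replicate 1 (256) and SOX2 p31 (307).

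Whole chromosomes also differed between libraries, as was noticed in the data. Against the first-wave NTC libraries, the median log2 difference of 651 chromosome 8 genes was 0.35, 0.36, 0.38 and 0.40 in the FNV libraries and 0.18, 0.16, 0.43 and 0.42 in the SOX2 libraries, and 0.32 in the second-wave NTC library. The median FNV minus SOX2 difference on chromosome 8 was thus 0.18 and 0.20 in replicates 1 and 2 and at or near 0 in p21 and p31. In the fit to all libraries 20.1% of chromosome 8 genes were higher in FNV and 7.83% lower, against 13.9% and 14.3% of all 11967 genes. Kifc3, Kbtbd11, Cbln1, Tubb3, Zfp42 and Cdh1 lie on this chromosome. On chromosome 14 the libraries SOX2 p21, SOX2 p31, FNV p31 and NTC p31 lay at -0.23, -0.31, -0.36 and -0.22 against first-wave NTC. On the X chromosome (500 genes) the libraries SOX2 p21, SOX2 p31 and FNV p31 lay at -0.16, -0.30 and -0.32, and the other FNV and SOX2 libraries between -0.08 and 0.10. The FNV minus SOX2 medians of X were -0.12, -0.16, 0.07 and 0, and 11% of its genes were higher in FNV and 17.2% lower. Nr0b1, Rbbp7 and Kctd12b lie on X. The FNV minus SOX2 medians of the other 17 chromosomes lay between -0.07 and 0.06. The part of these shifts in single genes was not tested.

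**Figure D4:**
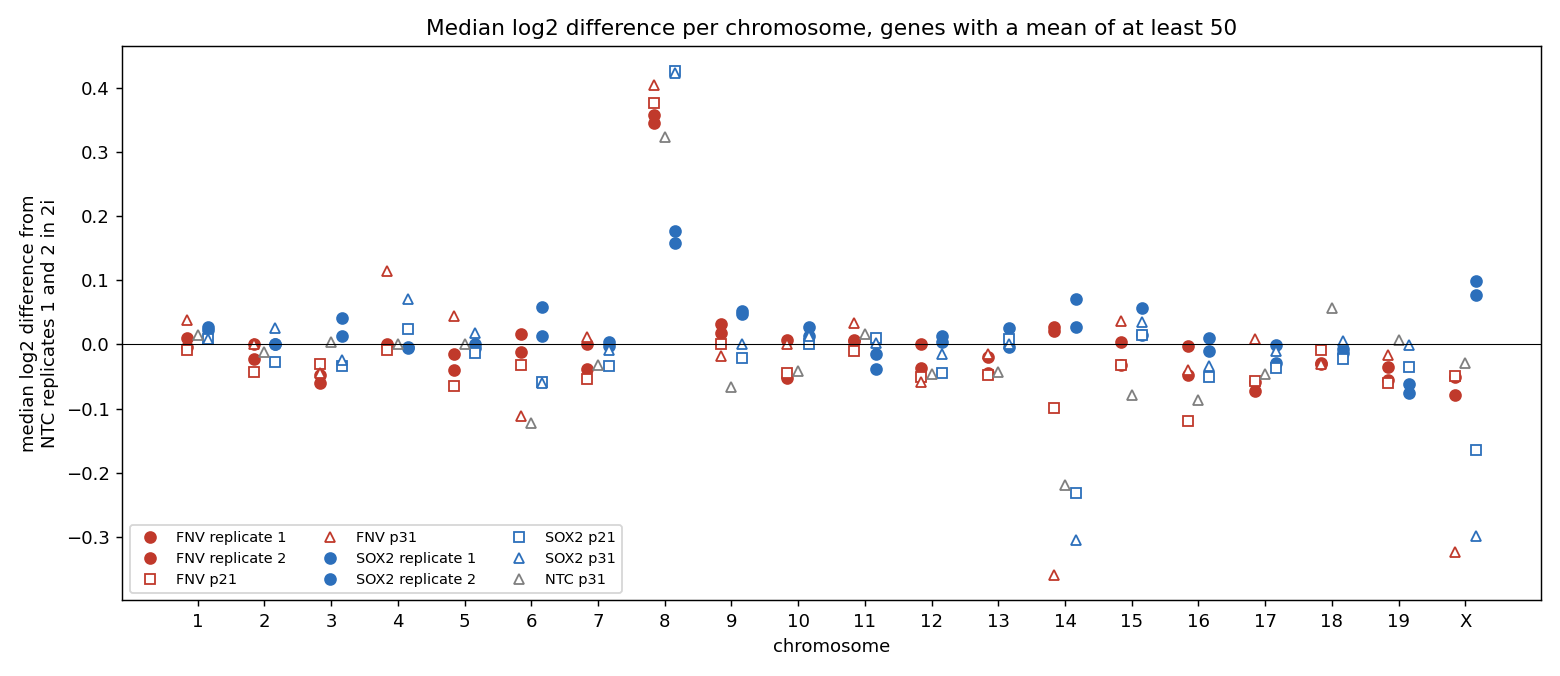
Median log2 difference from NTC replicates 1 and 2 in 2i, per chromosome, for genes with a mean of at least 50; red marks FNV, blue SOX2 and grey the second-wave NTC library. On chromosome 8 the first-wave SOX2 libraries lie at 0.18 and 0.16, and the other 7 libraries between 0.32 and 0.43.

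The same contrast was available in SL, with 2 libraries a group. These are replicates 1 and 2, which may be a single biological replicate, so p-values for the media may measure technical spread in SL. Averaging leaves 1 library in each SL group, so the averaged fit measures no spread within SL groups. The difference between media passed for 3416 genes (20.8%), or 46 (0.28%) after averaging, and 304 of the 463 genes passed it before averaging. Of the 463, 313 (67.6%) had the same sign in SL, against 49.1% of all genes, and Pearson's r across the 11967 genes was 0.15. Ntn1 kept its direction in SL, with 5 and 3 in FNV against 94 and 156 in SOX2, and Lifr did so with 720 and 597 against 1375 and 1317. Epcam lay in SL at 5331 and 4582 in FNV and 5331 and 5266 in SOX2, and its difference between media was 2.24 ± 0.13 (adjusted p = 1.69e-07). Krt8 was at 722 and 757 against 757 and 1162 in SL, a difference between media of 3.85 ± 0.56, which did not pass after averaging.

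For some genes the difference changed sign or size with the medium. Gata6 was 1 and 0 in FNV and 165 and 108 in SOX2 in SL, opposite to 2i. Its difference between media was 8.95 ± 0.53 in the fit to all libraries. Irf1 was 71 and 42 against 298 and 341 in SL, a difference of 3.80 ± 0.29. Ifitm1 and Ifitm2, which fell in 2i, were 316 and 342 against 286 and 243, and 2137 and 2601 against 1742 and 966, in SL. She, an SH2 domain adaptor gene, read 80 to 90 in FNV and 152 to 233 in SOX2 in 2i, and 317 and 294 against 70 and 72 in SL. Htra1, a secreted serine protease, did not pass in 2i (550 to 973 against 653 to 966) and read 1014 and 1206 against 73 and 50 in SL. Etv4 read 2016 and 1834 against 2602 and 2621 in SL, and its difference between media of -4.32 ± 0.74 passed before averaging only. The count of 3416 was moved by over 1.5 times only without FNV replicate 2 in SL (2100) among the libraries left out in turn.

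**Figure D5:**
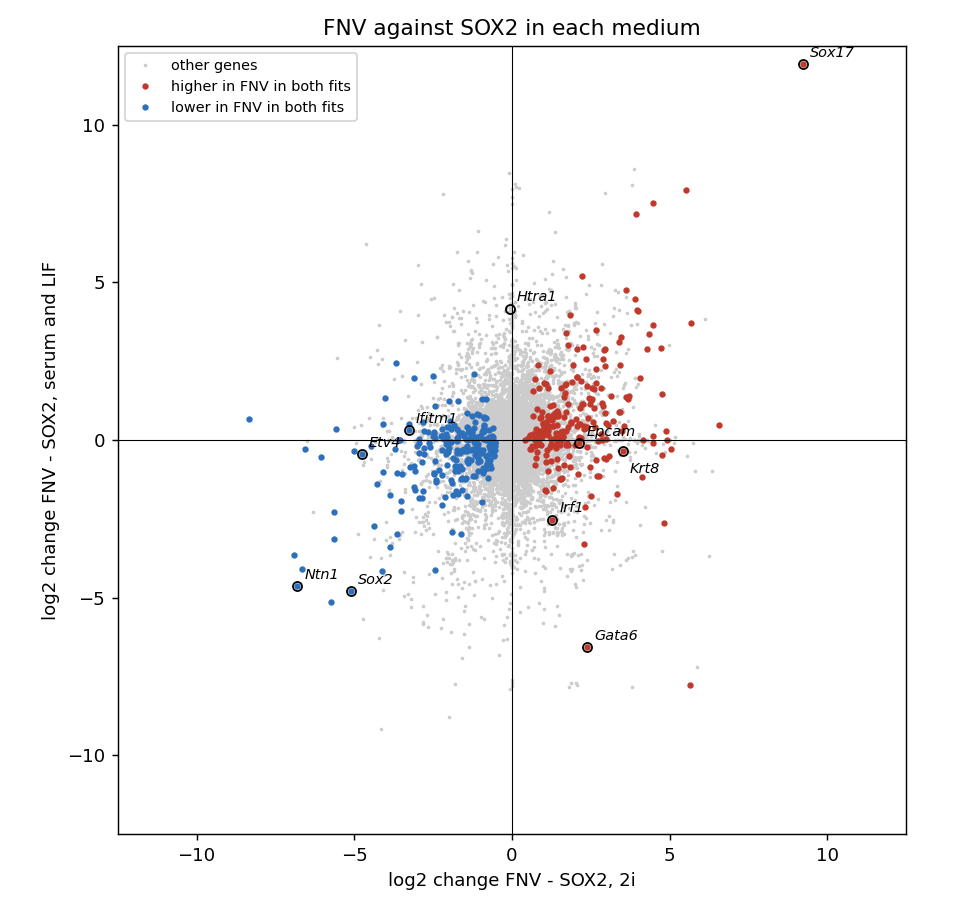
Log2 change FNV minus SOX2 in SL against that in 2i, 1 point a gene; red and blue mark genes higher or lower in FNV in 2i in both fits. Ntn1 is low in both media, Epcam is high in 2i and near 0 in SL, and Gata6 is higher in 2i and lower in SL.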

How the data were processed

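RNA was measured in 21 libraries of the 2TS22C line. Per the labels, oligo(dT) beads were used to enrich mRNA before Illumina sequencing. The submitters' processing notes name RSEM, Bowtie2 2.0 and the mm10 build. Strand use and the normalization software are not given in the sources used here. Overlapping or antisense genes may therefore share reads. The deposited values were taken as a score, since the authors had rounded them and made the libraries equal in distribution. They are not counts, so the planned fallback, limma on log2(value + 1), was used in place of a count test. Of the columns, 16 matched 1 sample each by name and 5 (p21 and p31) a group only.

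limma 3.58.1 in R 4.3.3, with intensity trend and robust moderation, fitted all 21 libraries with terms for group and wave, the wave term setting p21, p31 and the miniSOX libraries against the rest (12 residual degrees of freedom). P-values are two-sided and Benjamini-Hochberg adjusted over 16443 genes. A second fit averaged replicates 1 and 2 of each group (4 residual degrees of freedom). It was made for the differences between groups and between media, but not for the difference between waves. Coordinates are from GENCODE M21. On simulated data for this contrast, with 16443 genes, 37.3% of 1.5-fold, 68.7% of 2-fold and 89.4% of 4-fold changes were recovered. In the simulation 0 unchanged genes were called. Its noise was independent between libraries and its change was the same in both waves. Replicates 1 and 2 were thus no closer to each other than to p21 and p31. The simulation therefore cannot tell how many calls of the fit to all libraries rest on that closeness.

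The genes named are Sox2, Sox17, the 8 largest rises and 8 largest falls with a mean of at least 100, no overlap, no 0 and a pass in both fits, up to 4 members per list that passed both fits with a mean of at least 50, defining members, and the 6 smallest adjusted p for each difference. Some were left out for length, and 1 is not reported here. Anxa3, Plet1, Atp1b1, Tcl1, Foxd3, H19, Ascl2, Cdkn1c and Phlda2 fall outside this rule and were chosen after their values were seen, as were Id1, Id3, Slc2a3, Ldhb and Kctd12b. The comparison, its 39 gene lists and its tests were chosen with earlier results of these data known. Alternatives changed the pseudocount, filter, scaling, libraries, batch terms and averaging.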

Additional observations from a re-analysis of the deposited data

Results flagged for a closer look

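In groups of 4 libraries in 2i, a single library stood far from the others in 18 of 194 groups examined. The rule flags about 1 in 20 groups when the 4 values are independent, normal and equally spread. That rate does not hold here, since replicates 1 and 2 lie closer together than p21 and p31. Many of the genes were also chosen by their values. The distant library was p31 in 13 of the 18, p21 in 3 and replicate 1 or 2 in 2. Among FNV libraries the distant values were 129 for Etv4, 40 for Tubb3, 12486 for Pou5f1, 452 for Cdx2, 973 for Stat3, 1647 for Unc5b, 48 for Phlda2, 873 for Kifc3, 336 for Lefty2 and 67 for Foxd3, all in p31. Further distant FNV values were 21185 for Cdh1 and 19697 for H19, both in p21, and 16 for Vim in replicate 1. Among SOX2 libraries they were 3208 for Atp1b1, 120 for Perp and 25019 for Slc2a3 in p31, 1525 for H19 in p21 and 7 for Col3a1 in replicate 1.

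For 16 genes in the text the difference between FNV and SOX2 passed as different between the waves in the fit to all libraries. On the log2 scale, second wave minus first, it differed by -1.83 for Krt18, -2.20 for Krt8, -0.86 for Anxa3, -1.38 for Dab2, -4.70 for Cdx2 and -0.78 for Peg10, all of which were higher in FNV. It differed by 1.75 for Kbtbd11, 3.40 for Nr0b1, 0.51 for Esrrb, 3.05 for Tcl1 and -1.19 for Mycl, which were lower in FNV. Cd46, Lipo1 and Kifc3 differed by -6.14, -6.37 and -4.38, Atp8a1 by 1.58 and Dusp4 by 3.89. Replicates 1 and 2, which may be a single biological replicate, were not averaged for this test.

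For 8 genes the difference between FNV and SOX2 was different between media in both fits. On the log2 scale, 2i minus SL, it differed by 8.95 for Gata6, 2.24 for Epcam and 3.80 for Irf1, and by -3.59 for Ifitm1, -2.28 for Ifitm2, -4.24 for Htra1 and -3.28 for She. For Kctd12b it differed by -8.99 on the log2(value + 1) scale, which is no fold, since FNV was listed at 0 in 2i. In SL this gene read 1179 and 1086 in FNV and 713 and 715 in SOX2. After averaging each SL group is 1 library, so a pass in the averaged fit rests on no spread within SL groups. No explanation of these values was tested.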

How the results depend on the processing

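The count of 4150 genes between FNV and SOX2 stayed within 1.5 times under both pseudocounts, the filter at a mean of 50, both scalings (4141 and 4158), the batch term of 3 levels, the 8 libraries alone (2849), the 2i libraries alone (3444), the first wave alone (5605) and each library left out in turn (3054 to 4960). Median centring changed the split to 2196 higher and 1962 lower. The count was 465 with replicates 1 and 2 averaged, 304 with the 8 libraries alone and averaged (added after seeing the data), 2695 without the wave term and 835 in the second wave alone. With a replicate block in the 8 libraries it was 2106. Same-numbered libraries deviated together with r of 0.21, 0.16, 0.05 and 0.35 for replicates 1 and 2, p21 and p31, and -0.03, -0.03, 0.11 and 0.11 once wave means were removed. Once wave means are removed, the values within a wave are equal by construction, so each wave gives a single check. Not every pair was over 0.1, so the numbers were not taken to pair the samples in the main fit. A pairing of the p21 or of the p31 libraries is not excluded by this, and the fit with a replicate block allows for it.

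The 580 genes that differed between waves became 85 with the 8 libraries alone and 207 to 2486 with single libraries left out. The 3416 that differed between media became 5600 in the first wave alone, 46 after averaging and 2100 to 4510 with single libraries left out. The cause of these moves was not tested. Among changes that passed with all libraries or in the single wave, signs reversed in the second wave for Cd46 (-0.20), Lipo1 (-0.23), Kifc3 (-0.070) and Dusp4 (1.63), and in the first for Lefty2 (-1.13). Of changes that passed in neither, signs also differed in the second wave for Cdx1 (-0.61), Stat3 (0.12) and Ccnd1 (0.11), and in the first for Tfap2c (-0.08). Of 86 genes in the text that passed, 60 also passed after averaging and 60 in the second wave alone. Depth is unknown, so low values such as those of Krt7 carry an error that cannot be stated.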
